A study of Mus musculus with 6 samples.

Results

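The genes of sterol synthesis, uptake, trafficking and efflux were compared between sciatic nerves of Srebf-1c KO mice and wild-type littermates. The list was drawn up by function: 20 genes that act in the synthesis of cholesterol and 14 that take it up, move, store or release it. A gene was measured where the platform annotation gave a probe set that gene's symbol and no other, and the brightest such probe set stood for the gene. This held for 31 of the 34 genes (18 of synthesis, 13 of uptake, trafficking and efflux) among 22180 genes in all. Idi1, the isomerase of isopentenyl diphosphate, had only a probe set that also names another gene. No probe set carried the symbols of Acat2, a cytosolic thiolase that feeds the mevalonate pathway, or of Soat1, which esterifies cholesterol, so these 3 genes have no value here. Whole sciatic nerve, the large peripheral nerve of the leg, was taken at 10 months of age from 3 Srebf-1c KO samples and 3 wild-type samples, with 1 array each. The labels do not say how the Srebf-1c allele was made, in which cells it is lost, or whether a sample came from 1 mouse, and every p-value here describes variation among 6 samples, some of which may be technical.

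Cells build cholesterol from acetyl-CoA by way of mevalonate, farnesyl diphosphate, squalene and lanosterol. When sterols run low in the endoplasmic reticulum, the SREBP transcription factors are released from it and switch on the enzymes of this route; SREBP-2, from Srebf2, is best known for the cholesterol genes, and SREBP-1c, from Srebf1, for those of fatty acid synthesis. When sterols are plentiful, the liver X receptors switch on the efflux genes Abca1 and Abcg1. Myelin, the membrane that Schwann cells wrap around axons, is rich in cholesterol, most of which these cells make themselves.

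Srebf1, the targeted gene, had log2 intensities of 8.11, 8.06 and 8.04 in KO nerves, against 9.53, 9.55 and 9.70 in wild-type nerves. Its level fell by 1.52 on the log2 scale (SE 0.11, limma adjusted p = 0.0497), and the single probe set does not tell the 1c form from the others. This call lies just under the limit: the adjusted p was 0.0594 under quantile normalization, 0.0842 with the arrays at 1 median and 0.308 by the methods' ANOVA, and 0.255 to 0.764 with 1 array left out. With the adipocyte or muscle level as a covariate it was 0.169 and 0.224. Srebf2 had 11.40, 11.32 and 11.42 in KO nerves, against 11.49, 11.73 and 11.37 in wild-type nerves, a difference of -0.15 ± 0.13 (SE), and its groups overlapped. Median intensity was 121.2, 118.9 and 122.6 on the KO arrays, against 118.0, 117.6 and 115.5 on the wild-type arrays, so each KO median was the higher. The number of arrays, 6, limits the precision. The 8 measured of 11 listed markers of myelinating Schwann cells, among them the myelin protein genes Pmp22 and Mbp, lay at or above percentile 88.8 of intensity. The 10 markers of skeletal muscle, which lies beside the nerve, lay at or above percentile 90.3. None of the 9 measured of 10 listed markers of adipocytes was in the dimmest 25% of genes. The level of a list on an array is given as the average log2 deviation of its genes, each taken from its own 6-array mean. The muscle level was 0.69, -0.44 and 0.048 in KO nerves, against 0.72, -0.84 and -0.19 in wild-type nerves. The adipocyte level was -0.91, 1.52 and -1.10 in KO nerves, against -0.95, -0.025 and 1.47 in wild-type nerves. Fewer cells of a type and less RNA per cell cannot be told apart in whole nerve.

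Of the 31 measured sterol genes, 0 passed an adjusted p of 0.05 in limma, where 0.00451% of all genes did (Srebf1 alone). The smallest adjusted p among them was 0.850. At an unadjusted p under 0.05 there was 1, Mvd, which was lower in KO nerves, against 5.83% of all genes in either direction and 3.49% in that one. The study's own looser criterion, which asks for a 1.5-fold change and the same p before adjustment, was met by 0 of the 31 and by 1.19% of all genes. No measured sterol gene differed 1.5-fold between the group means. The 95% intervals are wide, however: they reached a 1.5-fold decrease for 7 genes and a 1.5-fold increase for 3, and stayed within both bounds for 22.

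Synthesis genes had a lower mean in KO nerves more often than not. Of 18, 14 (77.8%) had a lower and 4 a higher mean, against a lower mean in 56.9% of all genes and in 63.0% of the brighter 50% of genes, where all 31 sterol genes lay. With 1 array left out in turn, 11 to 17 had a lower mean. The median log2 fold change of the synthesis genes was -0.11, against -0.032 over all genes tested and -0.056 over the brighter 50%. Under quantile normalization 12 of 18 had a lower mean and the median was -0.072, against -0.0056 over all genes. With the arrays at 1 median 13 had a lower mean and the median was -0.078, against -0.0010 over all genes. Genes of uptake, trafficking and efflux were split, 7 lower and 6 higher, with a median of -0.064. The median of synthesis genes minus that of the other list was -0.044. The mean log2 fold changes of the 2 lists were -0.12 and -0.019. On single arrays, the synthesis level minus the other level, both averages over genes, had an SD of 0.15 within genotypes, pooled over KO and wild type. Leaving out 1 array moved the difference of medians to between -0.16, without KO replicate 1, and -0.022, without KO replicate 2. Without KO replicate 3 it was -0.12.

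**Figure D1:**
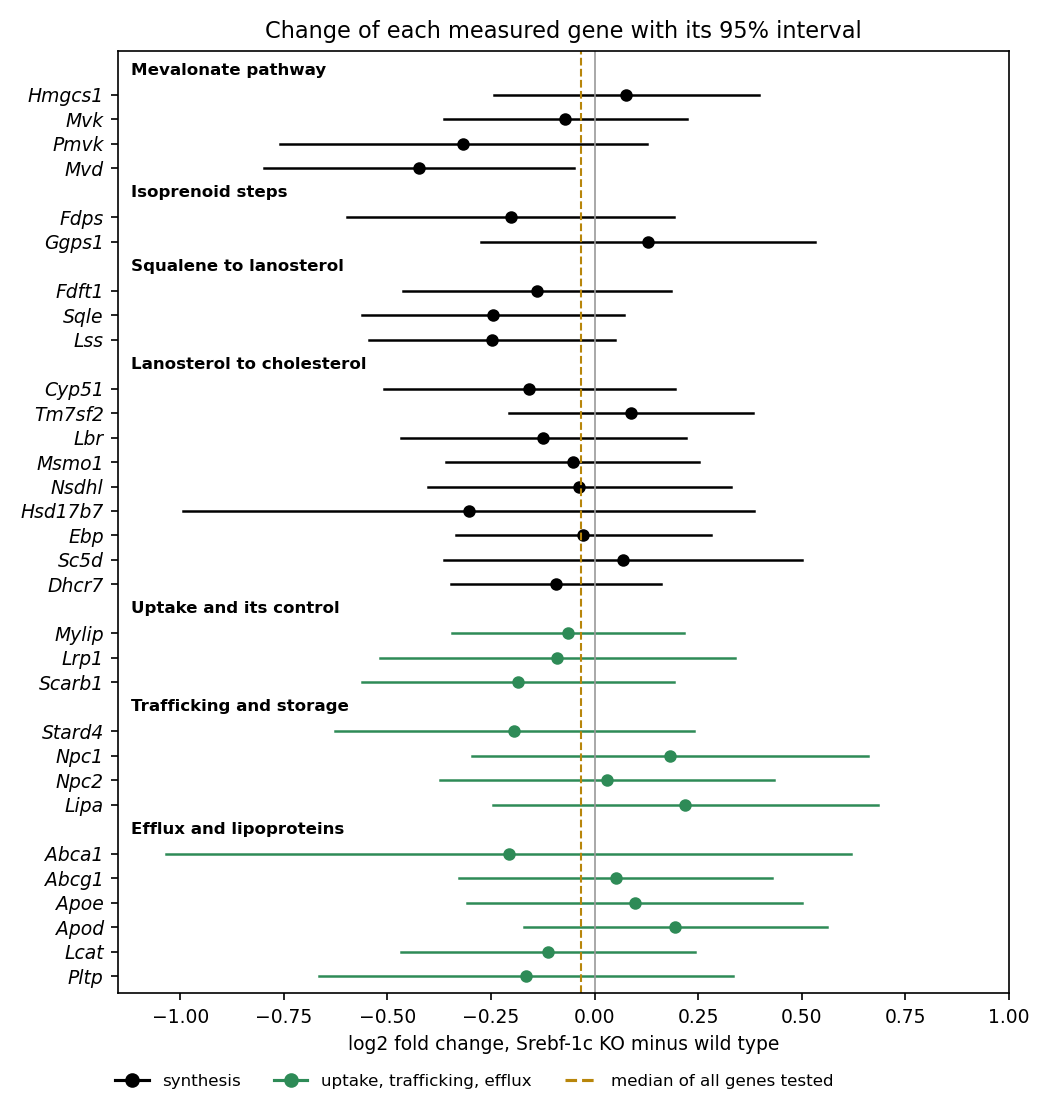
Log2 fold change (x axis, Srebf-1c KO minus wild type) of each measured gene, grouped down the page by its role, with dots for the estimate, lines for the 95% interval from limma and a dashed line for the median of all genes tested. Every interval but that of Mvd includes 0, and that one reaches up to -0.050.

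The mevalonate pathway opens synthesis. Hmgcs1, the synthase that makes HMG-CoA, had log2 intensities of 12.34, 12.19 and 12.26 in KO nerves, against 11.98, 12.22 and 12.36 in wild-type nerves. The KO values lay within the wild-type range, and the difference was 0.076 ± 0.14 (SE). Mvk, mevalonate kinase, differed by -0.071 ± 0.12, a direction that turned under quantile normalization (0.0063). Pmvk, which adds the next phosphate, had 8.68, 8.40 and 8.59 in KO nerves, against 8.85, 9.22 and 8.56 in wild-type nerves. Its difference of -0.32 ± 0.19 was -0.14 without wild-type replicate 2, the highest array.

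Mvd, the decarboxylase that yields isopentenyl diphosphate, had the largest difference among the measured sterol genes. Its log2 intensities were 7.83, 7.31 and 7.49 in KO nerves, against 8.07, 7.96 and 7.87 in wild-type nerves. Each KO value lay below each wild-type value, though KO replicate 1 and wild-type replicate 3 nearly met. The difference was -0.42 ± 0.16 (SE), a KO level 0.745 of wild type, with a 95% interval of -0.80 to -0.050. It did not pass over all genes (limma adjusted p = 0.850), and its unadjusted p of 0.0313 became 0.0631 under quantile normalization and 0.0618 with the arrays at 1 median. With one array left out in turn it ran from -0.57, without KO replicate 1, to -0.31, without KO replicate 2. Mvd was also the dimmest of the 31, at the 55th percentile of intensity.

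At the branch to isoprenoids, Fdps, which makes farnesyl diphosphate, and Ggps1, which extends it to the geranylgeranyl form used to anchor proteins in membranes, pointed opposite ways. Fdps had 10.21, 9.98 and 9.93 in KO nerves, against 9.95, 10.30 and 10.48 in wild-type nerves, a difference of -0.20 ± 0.17 (SE). Ggps1 had 9.10, 9.46 and 9.15 in KO nerves, against 8.82, 9.26 and 9.25 in wild-type nerves, a difference of 0.13 ± 0.17. In both genes the groups overlapped.

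The route from farnesyl diphosphate to lanosterol commits carbon to sterols. All 3 of its genes had a lower mean in KO nerves, and none passed the test. Fdft1, squalene synthase, had 11.49, 11.42 and 11.46 in KO nerves, against 11.36, 11.69 and 11.74 in wild-type nerves, a difference of -0.14 ± 0.14 (SE). Sqle, the squalene epoxidase, had 9.73, 9.78 and 9.87 in KO nerves, against 9.82, 10.16 and 10.13 in wild-type nerves, a difference of -0.25 ± 0.13. In both genes wild-type replicate 1 lay among or below the KO arrays, while the other wild-type arrays stood above them all. Lss, lanosterol synthase, had 9.07, 9.03 and 9.06 in KO nerves, against 9.11, 9.40 and 9.40 in wild-type nerves. Here too wild-type replicate 1 was close to the KO arrays, but each KO value was below each wild-type value. The difference was -0.25 ± 0.13, a KO level 0.842 of wild type, with an interval of -0.55 to 0.049. Mvd and Lss were the 2 of 31 genes whose groups did not overlap, against 12.3% of all genes. In both the KO arrays were the lower, as in 8.21% of all genes. Neither gene kept this separation under quantile normalization or with the arrays at 1 median, where 0 of the 31 had groups that did not overlap. No sterol gene had all KO arrays above all wild-type arrays, as 4.08% of all genes did.

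The 9 late enzymes turn lanosterol into cholesterol, and 7 of them had a lower mean in KO nerves, with a median of -0.053. Cyp51, the demethylase that acts on lanosterol, had 9.19, 9.10 and 9.18 in KO nerves, against 9.05, 9.53 and 9.37 in wild-type nerves, a difference of -0.16 ± 0.15 (SE). Tm7sf2 and Lbr both encode sterol reductases for the next step, and Lbr is also a receptor for lamin B in the nuclear envelope. Tm7sf2 differed by 0.087 ± 0.13 and Lbr by -0.12 ± 0.15, each with overlapping groups. Hsd17b7, a ketosteroid reductase, had 9.30, 8.63 and 8.49 in KO nerves, against 9.65, 8.76 and 8.93 in wild-type nerves. In each genotype its replicate 1 stood high, and its difference of -0.30 ± 0.29 shrank to -0.037 without wild-type replicate 1. Dhcr7, the reductase of a closing step, had 8.75, 8.79 and 8.73 in KO nerves, against 8.78, 8.90 and 8.87 in wild-type nerves. It had the smallest standard error of the 31, and its difference was -0.094 ± 0.11. The remaining 4 genes were Msmo1 and Nsdhl, which remove methyl groups, the isomerase gene Ebp and the desaturase gene Sc5d. Their differences ran from -0.053 for Msmo1 to 0.068 for Sc5d, and that of Ebp, -0.027, turned to 0.040 under quantile normalization and to 0.0043 with the arrays brought to 1 median.

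**Figure D2:**
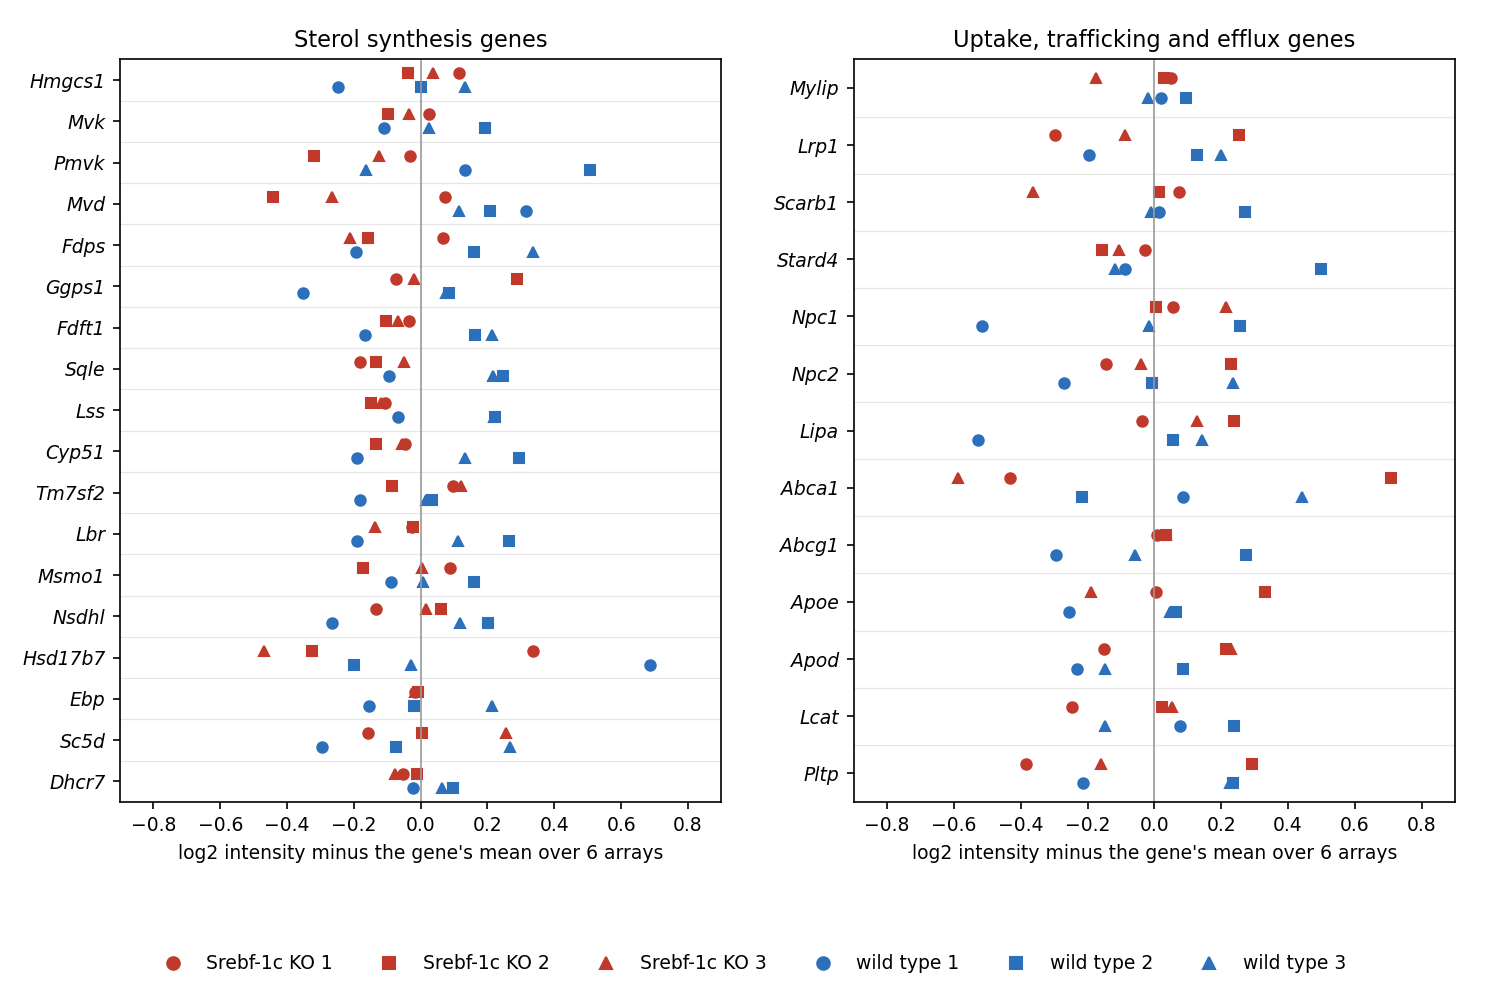
Deviation of log2 intensity from each gene's 6-array mean (x axis) for each measured gene, with Srebf-1c KO arrays in red above wild-type arrays in blue and the marker shape giving the replicate number. Wild-type replicate 1 (blue circle) lies left of the other wild-type arrays in 15 of 18 synthesis genes, and KO replicate 2 (red square) lies far right for Abca1.

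The promoters of synthesis genes are known to pair a sterol regulatory element, which SREBPs bind, with a CCAAT box bound by NF-Y. RefSeq windows of GRCm38.p6, from 250 bases before to 50 bases after a transcription start, were at hand for 24 of the 31 measured genes, and 3 are printed here: that of Hmgcs1, the one synthesis gene with a match to the element searched, and those of Mvd and Lss, the genes whose groups did not overlap. Capitals mark matches, on either strand, to the element (TCACNCCAC) or to the CCAAT box (CCAAT, or ATTGG on the other strand), and no 2 of these matches overlap.
Hmgcs1, chr13:119690101-119690400, plus strand: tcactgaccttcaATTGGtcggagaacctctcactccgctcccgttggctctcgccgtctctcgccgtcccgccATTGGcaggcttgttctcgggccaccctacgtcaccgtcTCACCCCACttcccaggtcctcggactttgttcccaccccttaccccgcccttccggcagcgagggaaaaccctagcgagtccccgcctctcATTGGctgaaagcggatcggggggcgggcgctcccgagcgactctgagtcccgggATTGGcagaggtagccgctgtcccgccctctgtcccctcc
Mvd, chr8:122443373-122443672, minus strand: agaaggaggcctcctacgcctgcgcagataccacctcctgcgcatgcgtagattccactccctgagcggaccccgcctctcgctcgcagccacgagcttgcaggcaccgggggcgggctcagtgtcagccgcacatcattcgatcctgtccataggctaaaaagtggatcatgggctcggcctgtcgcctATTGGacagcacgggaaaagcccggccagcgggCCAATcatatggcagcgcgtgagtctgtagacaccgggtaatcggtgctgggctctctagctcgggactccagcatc
Lss, chr10:76531355-76531654, plus strand: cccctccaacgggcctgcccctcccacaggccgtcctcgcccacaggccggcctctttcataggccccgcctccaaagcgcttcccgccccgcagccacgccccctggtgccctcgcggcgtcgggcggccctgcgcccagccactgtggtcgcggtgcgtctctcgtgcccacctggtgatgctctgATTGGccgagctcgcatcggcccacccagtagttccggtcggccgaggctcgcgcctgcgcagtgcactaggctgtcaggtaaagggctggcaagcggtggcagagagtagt

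In Hmgcs1 the sterol regulatory element match begins 137 bases before the start, between CCAAT box matches that begin 176 and 45 bases before it. Mvd has CCAAT box matches 60 and 27 bases before the start and Lss has one 62 bases before it. The element, with its letters as searched, was in the windows of 1 of 15 synthesis genes and 0 of 9 genes of uptake, trafficking and efflux, against 1.24% of all 32851 windows. A CCAAT box match was in at least 1 window of each of the 15 synthesis genes, and in 83.3% of their 18 windows. For genes of uptake, trafficking and efflux it was in 5 of 9 genes and 45.5% of 11 windows. Over all windows the share was 37.4%, and over windows of protein-coding genes in the brighter 50% of those tested it was 36.4%. A GC box (GGGCGG or its complement) was in 77.8% of synthesis windows and 54.5% of the other list's, against 35.7% of all windows and 63.0% of those of bright protein-coding genes. Some windows of Dhcr7 and Apoe, which have several starts, overlap each other. These are matches of letters, with no measure of binding.

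Uptake genes had small differences. Lrp1, a large receptor that takes up lipoproteins and many other ligands, had 11.37, 11.92 and 11.58 in KO nerves, against 11.47, 11.79 and 11.87 in wild-type nerves, a difference of -0.090 ± 0.18 (SE). Scarb1, the receptor for high-density lipoprotein, had 9.69, 9.63 and 9.25 in KO nerves, against 9.63, 9.89 and 9.61 in wild-type nerves, a difference of -0.18 ± 0.16. Mylip, a ubiquitin ligase that marks lipoprotein receptors for breakdown and is a target of the liver X receptors, differed by -0.064 ± 0.12. The groups overlapped in all 3 genes.

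Among trafficking genes, those of the lysosome had higher means in KO nerves and the cytosolic carrier a lower one, again without passing the test. Npc1, the membrane protein that exports cholesterol from lysosomes, had 11.46, 11.41 and 11.62 in KO nerves, against 10.89, 11.66 and 11.39 in wild-type nerves. Its KO values lay inside the wild-type range, and the difference was 0.18 ± 0.20 (SE). A dimmer probe set of Npc1 gave 0.14. Lipa, the acid lipase that frees cholesterol from its esters in lysosomes, had 10.40, 10.67 and 10.56 in KO nerves, against 9.90, 10.49 and 10.57 in wild-type nerves. Wild-type replicate 1 was the lowest array, and the difference of 0.22 ± 0.20 was 0.0095 without it. Npc2, which hands cholesterol to Npc1, differed by 0.030 ± 0.17, and by -0.048 with array weights. Stard4, a carrier of cholesterol through the cytosol and a known SREBP target, had 8.20, 8.07 and 8.12 in KO nerves, against 8.14, 8.73 and 8.11 in wild-type nerves. Its difference of -0.19 ± 0.18 rested on wild-type replicate 2 and was 0.0071 without that array.

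Efflux and lipoprotein genes had 3 lower and 3 higher means in KO nerves, and Abca1 had the largest standard error of the 31. Abca1, the transporter that loads cholesterol onto apolipoproteins, had 9.28, 10.42 and 9.13 in KO nerves, against 9.80, 9.50 and 10.16 in wild-type nerves. KO replicate 2 was the highest array and the other KO arrays were the lowest. The difference was -0.21 ± 0.35 (SE), it was -0.61 without KO replicate 2, and it was 0.034 without KO replicate 3. Without KO replicate 2 Abca1 met the study's criterion, though not the adjusted test. Its partner Abcg1 had 9.98, 10.00 and 10.00 in KO nerves, against 9.67, 10.24 and 9.91 in wild-type nerves, a difference of 0.051 ± 0.16, so the KO arrays agreed closely in one efflux gene and spread widely in the other.

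Apod, an apolipoprotein of the lipocalin family that is abundant in peripheral nerve, was at the 99.9th percentile of intensity. It had 13.01, 13.37 and 13.39 in KO nerves, against 12.92, 13.24 and 13.01 in wild-type nerves, and the difference of 0.20 ± 0.16 (SE) kept its direction with each array left out in turn (0.13 to 0.32). Apoe, which carries lipid between cells, differed by 0.096 ± 0.17, and by -0.0054 with array weights. Lcat, which esterifies cholesterol on lipoproteins, differed by -0.11 ± 0.15. Pltp, a phospholipid transfer protein and liver X receptor target, had 10.68, 11.36 and 10.91 in KO nerves, against 10.85, 11.30 and 11.29 in wild-type nerves, a difference of -0.17 ± 0.21.

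By level, the lists were highest on different arrays. The synthesis level was -0.0036, -0.10 and -0.067 in KO nerves, against -0.082, 0.14 and 0.11 in wild-type nerves. All KO arrays thus lay below wild-type replicates 2 and 3, and wild-type replicate 1 lay among the KO arrays. The level of uptake, trafficking and efflux genes was -0.12, 0.17 and -0.081 in KO nerves, against -0.18, 0.15 and 0.060 in wild-type nerves. Here KO replicate 2 was the highest of all arrays, just above wild-type replicate 2. Counted by gene, wild-type replicate 2 was the highest array in 9 of 18 synthesis genes and 6 of 13 others. That was so for 23.8% of all genes and 33.0% of the brighter 50%. KO replicate 2 was the highest in 1 of 18 and 5 of 13, against 10.7% of all genes. Synthesis minus the other list was 0.11, -0.27 and 0.014 in KO nerves, against 0.10, -0.011 and 0.055 in wild-type nerves, and it was lowest in KO replicate 2.

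**Figure D3:**
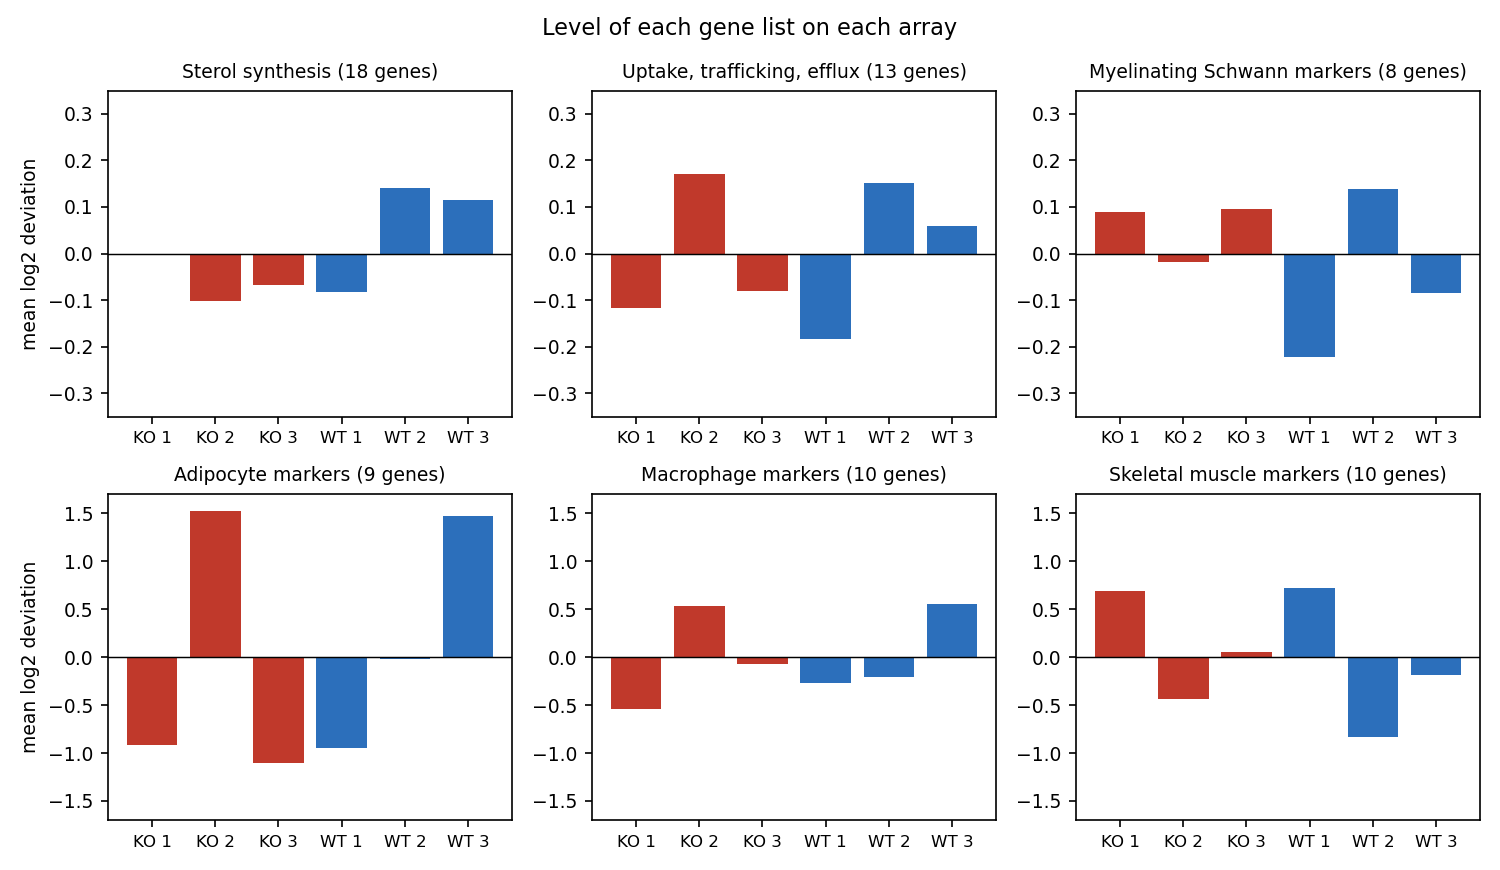
Level of each gene list (y axis, average log2 deviation of its genes from their 6-array means) on each array, with Srebf-1c KO arrays in red at the left and wild-type arrays in blue at the right. The upper row spans a narrower scale than the lower, and KO replicate 2 and wild-type replicate 3 carry the highest adipocyte and macrophage levels.

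The position of wild-type replicate 1 bears on this. It was the lowest of the wild-type arrays in 15 of 18 synthesis genes, or 83.3%, and in 8 of 13 others, or 61.5%, against 34.7% of all genes and 46.2% of the brighter 50%. The same array had the lowest level of myelinating Schwann cell markers, which stood at 0.089, -0.018 and 0.096 in KO nerves, against -0.22, 0.14 and -0.085 in wild-type nerves. Its muscle level was the highest, at 0.72, with KO replicate 1 close to it at 0.69. KO replicate 1 had the highest synthesis level of the KO arrays, -0.0036. Leaving out wild-type replicate 1 was a comparison chosen after its low position in the synthesis genes was seen. It can raise a count of genes with all KO arrays lowest but cannot reduce it, and no conclusion is drawn from that count. With wild-type replicate 1 left out, all KO arrays lay below all remaining wild-type arrays in 10 of 18 synthesis genes and 0 of 13 others, against 14.9% of all genes and 20.6% of the brighter 50%. The 10 were Mvk, Mvd, Fdps, Fdft1, Sqle, Lss, Cyp51, Lbr, Nsdhl and Dhcr7. Leaving out another array gave 2 to 3 such synthesis genes. Counted in either direction, 2 to 4 synthesis genes then had no overlap, against 17% to 26.6% of all genes. Without wild-type replicate 1 that count was 10, against 23.7% of all genes. The part of the Schwann cell and muscle markers in this was not tested. The smallest adjusted p of a sterol gene without that array was 0.759, so the test was passed by none there either.

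The SD over the KO arrays was smaller than that over the wild-type arrays in 16 of 18 synthesis genes, or 88.9%, against 63.6% of all genes, and in 6 of 13 genes of the other list. Without wild-type replicate 1, a comparison chosen after seeing the data, the synthesis count was 8 of 18, or 44.4%, against 50.7% of all genes. Without wild-type replicate 2 or 3 it stayed at 16 of 18, against 52.6% and 55.5% of all genes. Wild-type replicate 1 was the lowest wild-type array in 15 of 18 synthesis genes, so its removal tends to shrink their wild-type SD. The SDs then also come from unequal numbers of arrays, and no conclusion is drawn from these counts. Ebp had 9.10, 9.11 and 9.10 in KO nerves, against 8.96, 9.10 and 9.33 in wild-type nerves.

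The highest arrays of each genotype for Abca1 also had the highest adipocyte, macrophage, endothelial, and fibroblast and perineurial levels. The macrophage level was -0.54, 0.53 and -0.077 in KO nerves, against -0.27, -0.21 and 0.55 in wild-type nerves (10 of 10 listed markers measured, none in the dimmest 25% of genes). Like the adipocyte level, it was highest in KO replicate 2 and wild-type replicate 3. So were the levels of endothelial markers (0.15 and 0.38) and of fibroblast and perineurial markers (0.32 and 0.23). With the adipocyte level as a covariate the difference of Abca1 was -0.090, against -0.21 without it. That of Pltp was -0.10, against -0.17. Over the alternatives that kept all arrays the difference of Abca1 ran from -0.46 to -0.090. As all these levels were highest on the same arrays, the covariate fit cannot tell adipocytes from macrophages, endothelial cells or fibroblasts. The part of each was not tested.

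**Figure D4:**
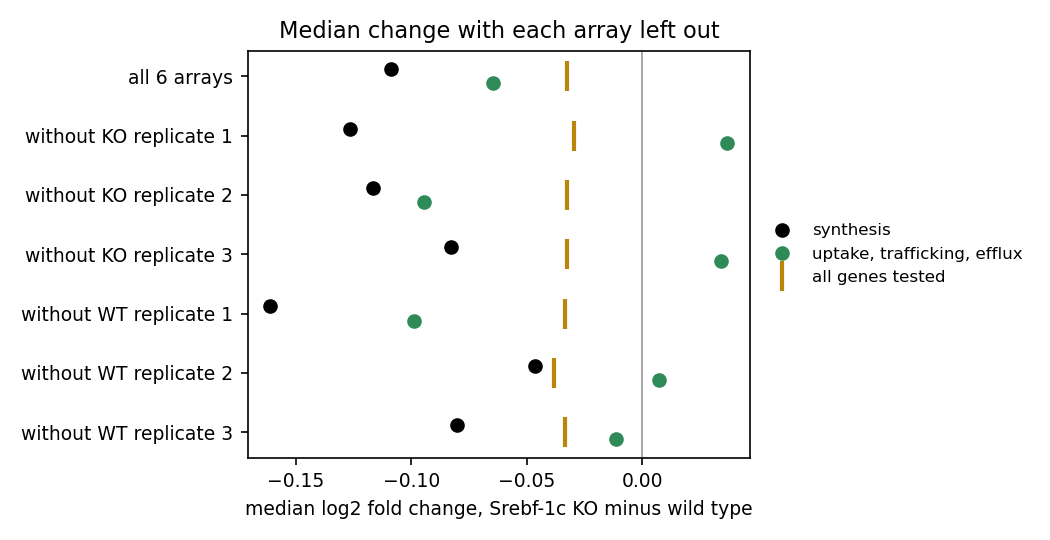
Median log2 fold change (x axis, Srebf-1c KO minus wild type) of the synthesis genes (black), of the uptake, trafficking and efflux genes (green) and of all genes tested (gold bars) with all 6 arrays and with each array left out. Synthesis medians run from -0.16 to -0.047, and those of the other list from -0.099 to 0.037.

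Other genes of the pathway did not pass the adjusted test either. Of 17 measured genes of further synthesis steps and sterol feedback, 10 had a lower and 7 a higher mean in KO nerves (median -0.058). Insig1, which holds SREBP precursors in the endoplasmic reticulum, had 10.82, 10.57 and 10.46 in KO nerves, against 11.02, 11.19 and 11.43 in wild-type nerves. Its groups did not overlap, and the difference of -0.60 ± 0.16 (SE) met the study's criterion. Of the 78 measured genes of the further lists it alone did, against 1.19% of all genes. The difference ran from -0.70 to -0.49 with an array left out and from -0.66 to -0.57 in the other alternatives. The smallest difference of each range is less than 1.5-fold. The others with the smallest p in that list were Nfyb, a subunit of NF-Y, at -0.26, Dhdds, of dolichol synthesis, at -0.23, and Fntb, a farnesyltransferase subunit, at 0.22.

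Of 13 further uptake genes 8 had a lower mean. Lrp6, a Wnt coreceptor of the lipoprotein receptor family, had 11.18, 11.39 and 11.18 in KO nerves, against 11.48, 11.55 and 11.61 in wild-type nerves, a difference of -0.30 ± 0.12 (SE) with no overlap. The chaperone gene Lrpap1 stood at -0.31, Olr1, a receptor for oxidised lipoprotein, at -0.26 and Lrp5 at -0.12. Of 23 further trafficking genes 11 had a lower and 12 a higher mean, with a median of 0.00059. The carrier genes Stard6 and Stard3 stood at 0.29 and -0.29, the lysosomal membrane protein gene Scarb2 at 0.25 and the ester hydrolase gene Nceh1 at 0.17.

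Of 16 further efflux and lipoprotein genes 6 had a lower and 10 a higher mean (median 0.080). Abcg5, a sterol transporter best known from liver and gut, had 6.07, 6.15 and 6.45 in KO nerves, against 5.89, 5.84 and 5.89 in wild-type nerves. The groups did not overlap, but the gene was dim, at the 26.6th percentile of intensity, and the difference was 0.35 ± 0.14 (SE). Apoa1 stood at 0.27, Abca8a at 0.26 and Clu, the apolipoprotein clusterin, at -0.37. Of 9 oxysterol and bile acid genes 6 had a lower mean. Cyp7a1, the liver enzyme that opens bile acid synthesis, stood at 0.34 at the 5.68th percentile of intensity, Sult2b1, a sterol sulfotransferase, at -0.18, Ebpl at -0.13 and Ch25h, which makes an oxysterol, at 0.20. Of the 78 measured genes of these lists, Insig1, Lrp6 and Abcg5 had an unadjusted p under 0.05, which is 3.85%, against 5.83% of all genes, and their limma adjusted p was 0.850 each. These 3 and Stard6, with all KO arrays above all wild-type arrays, had groups that did not overlap, which is 5.13%, against 12.3% of all genes.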

How the data were processed

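RNA of whole sciatic nerve was hybridised to 1 Affymetrix whole-transcript array per sample. The deposited values are probe set intensities that the authors computed with RMA (background correction, normalization across arrays, summary of a set's probes) in TAC and Partek, per the series' design text, with no versions stated. Values between 3.67 and 23738 show a linear scale, although RMA ends in log2. Groups follow titles and genotype fields. A source label on the KO samples names them wild type, against their titles, and Srebf1 was low on all 3 arrays titled KO.

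Log2 was taken with no pseudocount. Of 41077 probe sets, 23521 carried 1 gene symbol, 1814 several and 15742 none. Where a gene had several probe sets (1082 genes) the brightest on average was used, leaving 22180 genes, of which dim ones were kept. KO minus wild type was fitted for each gene in limma 3.58.1 under R 4.3.3, by lmFit and eBayes (two-sided, Benjamini-Hochberg over 22180 genes), without a replicate block, and the procedure was tested on simulated data. A ± gives the standard error of a log2 fold change. The study's criterion was applied to the limma p.

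Gene lists are described by counts and medians, with no test of a list. All listed genes are reported, and up to 4 genes of each further list were named by smallest p. The members, lists and motifs were chosen with earlier results of these data known. Promoter sequences are those of RefSeq for GRCm38.p6. The array values carry no coordinates. Python 3.11.15 with pandas 2.3.3, numpy 2.4.6 and matplotlib 3.10.9 was used for joins and plots.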

Additional observations from a re-analysis of the deposited data

How the results depend on the processing

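Alternatives were 2 other normalizations, 2 filters on dim genes, the mean of a gene's probe sets, a pseudocount of 16, 5 other variance models or covariates, a replicate block, other limits and leaving out each array. In none did a measured sterol gene pass an adjusted p of 0.05 or 0.10, and the synthesis median stayed below 0 (-0.16 to -0.047 with an array left out). The number with an unadjusted p under 0.05, which was 1, became 0 under quantile normalization, arrays at 1 median and the methods' ANOVA, 2 with the muscle score as a covariate, and 0 to 2 with an array left out. The number with no overlap, which was 2, became 0 under quantile normalization and arrays at 1 median and ran from 3 to 10 with an array left out. Over all genes the share with no overlap was 12.3%, and it became 11.2% and 9.54% in those settings. With an array left out that share ran from 17% to 26.6%. The number meeting the study's criterion was 0 to 1 with an array left out. For uptake, trafficking and efflux genes, leaving out an array gave medians of -0.099 to 0.037 and 5 to 11 genes with a lower mean. Srebf1 missed an adjusted p of 0.05 under quantile normalization (log2 fold change -1.46), arrays at 1 median (-1.49) and the methods' ANOVA (-1.52). It also missed this limit with the adipocyte score (-1.51) or muscle score (-1.52) as a covariate. The same held with any array left out (-1.56 to -1.47, adjusted p of 0.255 to 0.764). The cause was not tested for any of these.

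The replicate block left all fold changes as they were and gave Srebf1 -1.52 with an adjusted p of 0.713. It changed no call of a sterol gene. Over all genes it took the number past an adjusted p of 0.05 to 0, against 1 without it. Same-numbered arrays of both genotypes did not all deviate together (r = 0.12, 0.012 and -0.23 for numbers 1, 2 and 3), nor did each array correlate best with its own number, so the numbers were not taken to pair the samples.

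Of the sterol genes, 11 of 18 in synthesis and 5 of 13 in uptake, trafficking and efflux kept their direction under all of these. Directions turned for Mvk (0.0063) and Ebp (0.040) under quantile normalization, Ebp (0.0043) with arrays at 1 median, Nsdhl (0.016) with the muscle score, and Npc2 (-0.048) and Apoe (-0.0054) with array weights. With an array left out, log2 fold changes that turned ran from -0.028 to 0.16 for Hmgcs1, -0.14 to 0.0072 for Mvk, -0.015 to 0.20 for Ggps1, -0.11 to 0.020 for Msmo1, -0.18 to 0.055 for Nsdhl, -0.11 to 0.073 for Ebp and -0.063 to 0.22 for Sc5d. In the other list they ran from -0.11 to 0.0070 for Mylip, -0.24 to 0.037 for Lrp1, -0.30 to 0.0071 for Stard4, -0.029 to 0.36 for Npc1, -0.099 to 0.15 for Npc2, -0.61 to 0.034 for Abca1, -0.083 to 0.20 for Abcg1 and -0.045 to 0.22 for Apoe. Among the further genes named they were -0.64 to 0.041 for Olr1 and -0.13 to 0.57 for Ch25h.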
